A study of Mus musculus with 9 samples.

Results

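Eph receptors and ephrins, and semaphorins with their plexin and neuropilin receptors, are families of membrane and secreted proteins through which cells steer, repel or hold their neighbours. Their genes were chosen by symbol alone, and 53 of the 56481 symbols in the table were members. They comprised 9 EphA receptors, 5 EphB receptors, 5 ephrin-A ligands, 3 ephrin-B ligands, semaphorins of class 3 (7 genes), class 4 (6 genes), class 5 (2 genes), class 6 (4 genes) and class 7 (1 gene), plexins A (4 genes), B (3 genes), C (1 gene) and D (1 gene), and the 2 neuropilins. RNA was sequenced from 3 groups of mouse cells with 3 libraries each. Primary neural crest cells (pNCC) were from E13.5 embryos and grew in DMEM with 10% FBS. Induced cells (iCEC) were obtained by moving neural crest cells at near confluence to DMEM/F12 with 5% KSR, 2-mercaptoethanol, non-essential amino acids and 5 µM of SB431542, a compound that blocks the type I receptor kinase of TGF-β. Per the labels that medium was changed every 2 days, clusters were seen by day 4 and colonies were studied on day 12. Cells labelled primary corneal endothelial cells (pCEC) grew in the same FBS medium as pNCC, and the labels give no age for them. No strain or sex is stated for any group, nor whether iCEC RNA came from picked colonies or from whole wells. The labels name polyA RNA for all libraries of pNCC and iCEC and for pCEC 1, and total RNA for pCEC 2 and pCEC 3. Nothing states that replicates were separate cultures or animals, so p-values measure the spread between these libraries, which may be technical.

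Eph receptors are receptor tyrosine kinases that bind ephrins on the next cell, so both partners can signal at the contact. EphA receptors mainly bind lipid-anchored ephrin-A ligands, and EphB receptors mainly bind transmembrane ephrin-B ligands. Class 3 semaphorins are secreted and usually act through a neuropilin paired with a plexin A, whereas class 4 semaphorins are membrane proteins that often bind plexin B, and Sema7a binds plexin C1. In the embryo these cues keep migrating neural crest cells in separate streams, and the crest around the eye forms the corneal endothelium and stroma. In the mature cornea EphA2 and ephrin-A1 are known from the surface epithelium, and Sema3a is known as a repellent of sensory axons.

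Total counts per library ran from 27389292 in pCEC 3 to 47967113 in iCEC 1. Levels are given as CPM, the standard depth-scaled count, with library sizes scaled by TMM, on which 3 counts amount to 0.0615 to 0.126 CPM, and levels of different genes are compared only per kb of merged exon. The labelled cell types were checked against marker lists. The 8 corneal endothelium markers summed to 275 to 506 CPM in pNCC, 105 to 144 CPM in iCEC and 553 to 994 CPM in pCEC, but the members of the list did not move together. In iCEC Col8a2 was at 0 to 0.115 CPM, Aqp1 at 0.115 to 0.615 CPM and Cdh2 at 0.115 to 0.398 CPM. Slc4a11 read 4.38 to 10.5 CPM there, against 1.18 to 2.02 CPM in pNCC. Alcam read 11.2, 45.6 and 96.2 CPM, which overlapped pNCC (10.7 to 32.0 CPM), and Col8a1 read 97.3, 92.2 and 1.79 CPM, against 55.7 to 171 CPM. In pCEC Cdh2 and Col8a1 had lower means than in pNCC (2.33 against 151 and 15.6 against 116 CPM), and the other members of the list had higher ones. The 7 corneal surface epithelium markers summed to 76.9 to 132 CPM in pNCC, 11689 to 18602 CPM in iCEC and 54750 to 81312 CPM in pCEC. Krt12, the keratin that defines corneal surface epithelium, was at 0 in pNCC, at 0 to 0.0249 CPM in iCEC and at 8975 to 12782 CPM in pCEC, against the endothelial label of pCEC. Pax6 was at 0.0498 to 0.745 CPM in iCEC and 831 to 975.2 CPM in pCEC, and Krt14 was higher in iCEC (5934 to 8227 CPM) than in pCEC (353 to 2921 CPM). The 7 neural crest markers summed to 756 to 912 CPM in pNCC, 62.4 to 88.0 CPM in iCEC and 126 to 216 CPM in pCEC. In iCEC Foxd3 was at 0 and Sox10 at most at 0.0573 CPM, while Snai2 read 30.5, 36.8 and 82.0 CPM, against 38.7 to 65.2 CPM in pNCC, and Pax3 read 10.7, 10.1 and 0 CPM, against 2.97 to 11.7 CPM. The 8 neuron markers summed to 134 to 190 CPM in pNCC, 2.54 to 10.7 CPM in iCEC, where Elavl4, Nefl and Rbfox3 were at 0, and 0.569 to 3.90 CPM in pCEC. The 6 keratocyte markers summed to 15129 to 19490, 16.4 to 123 and 744 to 6706 CPM in the same order, with Kera at 0 in iCEC. The corresponding ranges were 14.4 to 63.0, 0.149 to 0.745 and 0.167 to 0.305 CPM for 7 skeletal muscle markers, and 22.2 to 27.8, 3.93 to 9.37 and 10.4 to 23.9 CPM for 10 vessel endothelium markers. They were 68.9 to 157, 122 to 238 and 445 to 524 CPM for 7 glia markers, and 21.4 to 30.2, 15.4 to 56.5 and 22.3 to 47.6 CPM for 8 leukocyte markers. The part of these cell types in the results on guidance genes was not tested, and in bulk RNA fewer cells of a type and less RNA per cell cannot be told apart. The library iCEC 3 stood apart from the other iCEC libraries in Nrp1, Epha2, Sema6a and Ephb1, among other members, and iCEC 1 stood apart in Sema3c, Plxna2 and Sema5a. The spread of iCEC 3 was not limited to members. Across the genes compared, the chi-square per gene was 639 against iCEC 1 and 781 against iCEC 2. It was 274 between iCEC 1 and iCEC 2, and 55.1 to 166 between replicates of pNCC and of pCEC.

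Promoter sequences are shown for 6 receptor genes, chosen after their values were seen because they sit at opposite ends of the results: Epha1, Epha2 and Plxnb1 were higher in both iCEC and pCEC than in pNCC, and Epha3, Epha5 and Plxnb3 were lower in both. Each line runs 5′ to 3′ on the gene's strand from base 250 to base 51 before the RefSeq start (GRCm38.p6). Capitals mark GGGCGG or its reverse complement CCGCCC, the core of GC boxes, and CACCTG or its reverse complement CAGGTG, the E-box bound by Snail and Zeb factors.
Epha1, chr6:42373319-42373518, minus strand: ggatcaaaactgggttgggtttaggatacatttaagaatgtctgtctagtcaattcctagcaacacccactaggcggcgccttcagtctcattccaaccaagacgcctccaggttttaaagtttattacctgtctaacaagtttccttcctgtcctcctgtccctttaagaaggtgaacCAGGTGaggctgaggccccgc
Epha2, chr4:141300971-141301170, plus strand: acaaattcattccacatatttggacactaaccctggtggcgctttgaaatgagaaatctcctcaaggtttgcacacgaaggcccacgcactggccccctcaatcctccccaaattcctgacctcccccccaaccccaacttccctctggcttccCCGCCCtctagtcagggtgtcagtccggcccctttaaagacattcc
Plxnb1, chr9:109095186-109095385, plus strand: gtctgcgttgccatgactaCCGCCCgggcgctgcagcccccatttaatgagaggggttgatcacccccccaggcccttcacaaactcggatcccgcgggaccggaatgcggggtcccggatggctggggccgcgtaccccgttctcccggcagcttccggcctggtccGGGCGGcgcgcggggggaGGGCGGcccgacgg
Epha3, chr16:63864226-63864425, minus strand: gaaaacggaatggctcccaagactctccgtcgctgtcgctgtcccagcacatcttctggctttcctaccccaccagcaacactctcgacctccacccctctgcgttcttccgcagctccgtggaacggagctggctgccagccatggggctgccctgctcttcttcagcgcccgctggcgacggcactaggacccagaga
Epha5, chr5:84417433-84417632, minus strand: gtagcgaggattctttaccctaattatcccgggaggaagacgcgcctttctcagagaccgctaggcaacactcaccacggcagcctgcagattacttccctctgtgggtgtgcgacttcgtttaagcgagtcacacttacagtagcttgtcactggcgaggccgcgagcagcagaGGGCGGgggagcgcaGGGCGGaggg
Plxnb3, chrX:73756853-73757052, plus strand: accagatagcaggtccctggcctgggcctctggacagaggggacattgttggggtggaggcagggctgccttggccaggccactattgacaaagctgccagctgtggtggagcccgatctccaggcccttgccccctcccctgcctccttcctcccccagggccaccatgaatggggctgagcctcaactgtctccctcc
In these 200 bases Epha1 held 1 E-box and no GC box, Epha2 held 1 GC box, Plxnb1 held 3 and Epha5 held 2, and Epha3 and Plxnb3 held neither motif. RefSeq promoter windows of 300 bases (250 before to 50 after the start) were matched for 47 of the 53 genes, as 61 windows. GGGCGG or CCGCCC was in 46 of the 61 windows (75.4%), in 59.0% of the windows of all genes tested and in 35.7% of all 32851 windows. CACCTG or CAGGTG was in 8 of 61 (13.1%), against 18.7% and 20.2%, and TATAAA or TTTATA was in 1 of 61 (1.64%), against 7.73% and 13.6%. The genes that were higher in both iCEC and pCEC and those that were lower in both had GGGCGG or CCGCCC in 77.8% of 18 and in 71.4% of 14 windows. A match is a description of letters and not a site of binding.

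Against pNCC, guidance genes moved in both directions, and the same families held genes that rose and genes that fell. In iCEC vs pNCC, edgeR's quasi-likelihood test with Benjamini-Hochberg adjustment over all genes called 25 of the 48 members tested, where 31.3% of all 16293 genes tested were called. Of these, 11 were higher in iCEC (16.1% of all genes) and 14 were lower (15.1%), and the median log2 fold change was -0.75, beside 0.05 over all genes. In pCEC vs pNCC 41 of 49 members tested were called, where 62.5% of all genes tested were called. Of these, 18 were higher in pCEC (30.3% of all genes) and 23 were lower (32.2%), with a median log2 fold change of -0.47, beside -0.01 over all genes. Between iCEC and pCEC 10 of 44 members tested were called, where 20.4% of all genes tested were called. Of these, 5 were higher in iCEC (10.5% of all genes) and 5 were lower (9.92%), with a median of -0.05, beside 0.04. Members that passed the filter on low counts only through the group where they were high had to differ, so these counts support nothing beyond the single genes. Epha6, Epha8, Epha10 and Sema5b passed it in none of the comparisons, with at most 0.394 CPM in any library. Without that filter 1 of them, Sema5b, was called lower in pCEC than in pNCC (edgeR adjusted p = 0.0105), with 10, 14 and 4 counts in pNCC and 0 in every pCEC library, at least 2.62-fold lower at a floor of 3 counts per library.

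The comparisons of iCEC and of pCEC with pNCC share the 3 pNCC libraries, so their calls are not independent. The share of all genes called alike in both was not computed, so the counts below describe the members only. Called higher in both were 11 members, the ephrins Efna1, Efna3 and Efna4, the receptors Epha1, Epha2, Ephb6 and Plxnb1, and the semaphorins Sema3f, Sema4a, Sema4b and Sema4d. Called lower in both were 13 members, the receptors Epha3, Epha5, Ephb2, Nrp2, Plxna1, Plxna4, Plxnb3 and Plxnc1, and the semaphorins Sema3g, Sema4c, Sema6b, Sema6c and Sema7a. No member was called in opposite directions. In pCEC alone 7 further members were called higher, among them Ephb1, which was not tested in iCEC, and 10 were called lower, and Sema6d was called lower in iCEC alone. The 7 members called in neither comparison were Efnb2, Efnb3, Plxna2, Sema3b, Sema3c, Sema3d and Sema5a.

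**Figure D1:**
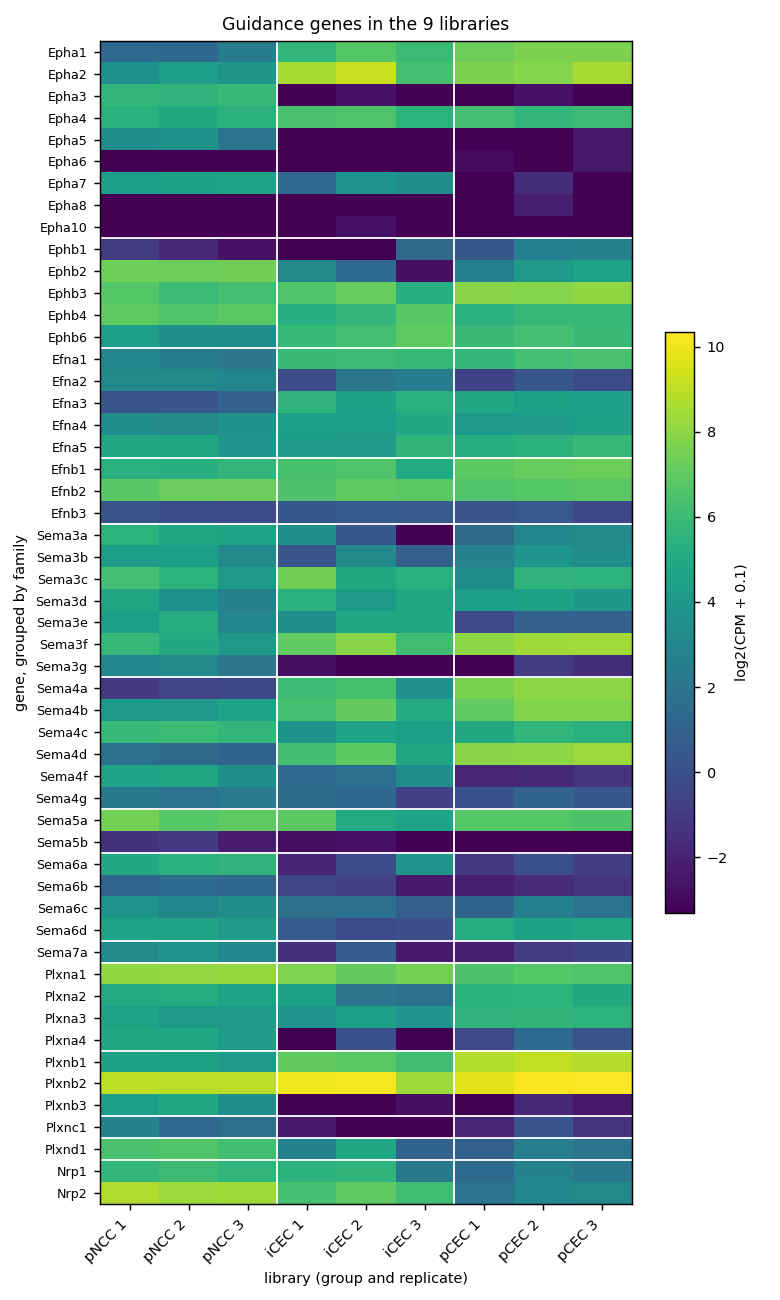
Level of each of the 53 guidance genes (rows, grouped by family) in the 9 libraries (columns), coloured by log2(CPM + 0.1). Epha3, Epha5 and Plxnb3 are brighter in the 3 pNCC columns and dark in the others, Sema4a and Sema4d are the reverse, and iCEC 3 differs from the other iCEC columns in Nrp1, Sema6a and Epha2.

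The EphA receptors had a different makeup in pNCC than in iCEC and pCEC. By mean share, Epha3 and Epha4 led the family in pNCC, and Epha2 and Epha1 led it in iCEC and pCEC. Summed over the 9 genes, the level was 18.04 ± 1.18 CPM per kb (SD, n = 3) in pNCC, 106 ± 65.5 in iCEC and 114 ± 23.8 in pCEC. Epha3 held 33.2% ± 1.75 (SD, n = 3) of the family level in pNCC and at most 0.00641% in any other library. Epha2, a receptor prominent in epithelia, held 18.9% ± 5.22 in pNCC, 65.7% ± 19.9 in iCEC and 50.2% ± 6.64 in pCEC, and Epha1 held 4.72% ± 2.09, 22.7% ± 15.7 and 42.5% ± 5.68.

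Epha3 (chr16:63543534-63864175, minus strand, mm10) read 52.8, 46.8 and 56.6 CPM in pNCC, 0, 0.0573 and 0 CPM in iCEC, and 0, 0.0610 and 0 CPM in pCEC. The 3 pNCC libraries lay together, far above every other library, in which at most a few counts were seen. By summed counts Epha3 was 3222-fold lower in iCEC than in pNCC (95% counting interval 891 to 26610.2; edgeR adjusted p = 0.000518) and 2343-fold lower in pCEC (648 to 19355; adjusted p = 2.23e-06). Epha5 (chr5:84054761-84417382, minus strand), a receptor known from neural tissue, read 10.7, 12.3 and 3.75 CPM in pNCC, 0 in each iCEC library, and 0, 0 and 0.0837 CPM in pCEC. It was at least 120.4-fold lower in iCEC at a floor of 3 counts per library (edgeR adjusted p = 0.00466) and 402-fold lower in pCEC by summed counts (111 to 3321; adjusted p = 0.000222). Epha7 (chr4:28813131-28967499, plus strand) read 20.99, 22.9 and 24.995 CPM in pNCC, 2.48, 14.3 and 10.3 CPM in iCEC, and 0, 0.244 and 0 CPM in pCEC. The groups did not overlap, with iCEC between the others, and the fall passed the test in pCEC (log2 fold change -8.00, SE 0.73, edgeR adjusted p = 9.88e-05) but not in iCEC (-1.32, SE 0.60, edgeR adjusted p = 0.146). With single libraries left out, the fitted log2 fold change of Epha3 ran from -13.96 without iCEC 2 to -10.71 without iCEC 1, and in pCEC from -13.71 without pCEC 2 to -10.37 without pCEC 1. The value of Epha5 in pCEC was -11.24 without pCEC 3, -7.80 without pCEC 1 and -7.81 without pCEC 2, and that of Epha7 was -12.53 without pCEC 2 and -7.33 without pCEC 1. A fitted value for a group with no count left depends on the prior count of the fit and is no bound.

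Epha1 (chr6:42358487-42373268, minus strand), the founding Eph receptor, read 2.43, 2.36 and 5.43 CPM in pNCC, 50.7, 103 and 64.9 CPM in iCEC, and 158, 206 and 201 CPM in pCEC. The 3 groups did not overlap, and Epha1 was 21.9-fold higher in iCEC than in pNCC (log2 fold change 4.45, SE 0.49, edgeR adjusted p = 0.00213) and 54.0-fold higher in pCEC (5.76, SE 0.38, edgeR adjusted p = 2.44e-05). Its exons share 236 bases (6.01%) with exons of Zyx on the opposite strand, and the library kit does not mark strand, so reads of the 2 genes cannot be told apart there. Epha2 (chr4:141301240-141329384, plus strand) read 12.6, 20.05 and 15.0 CPM in pNCC, 384, 617 and 80.8 CPM in iCEC, and 204, 235 and 379 CPM in pCEC. Every iCEC and pCEC library was above every pNCC library, with iCEC 3 well below the other iCEC libraries. Epha2 was 23.3-fold higher in iCEC (log2 fold change 4.54, SE 0.77, edgeR adjusted p = 0.00790) and 16.9-fold higher in pCEC (4.08, SE 0.30, edgeR adjusted p = 3.05e-05), and in iCEC the value was 3.91 without iCEC 2. Epha4, which binds both ephrin classes, read 31.2 to 44.7 CPM in pNCC, 45.7 to 95.2 CPM in iCEC and 53.4 to 77.2 CPM in pCEC. It passed the test in pCEC (log2 fold change 0.68, SE 0.21, edgeR adjusted p = 0.0220; 0.0734 without pNCC 2) and not in iCEC (0.97, SE 0.32, adjusted p = 0.0625; 0.00515 without iCEC 3). The surface epithelium marker list given above was higher in both groups in which Epha1 and Epha2 were higher, and its part was not tested.

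EphB receptors had a summed level of 53.8 ± 6.99 CPM per kb (SD, n = 3) in pNCC, 52.2 ± 13.1 in iCEC and 67.3 ± 4.36 in pCEC, and single members moved in opposite directions. Ephb2 (chr4:136647539-136835988, minus strand), a receptor of ephrin-B ligands, read 159, 154 and 169.6 CPM in pNCC, 8.53, 2.69 and 0.0498 CPM in iCEC, and 5.81, 17.2 and 24.8 CPM in pCEC. No library of either other group came near the pNCC level, and the iCEC libraries spread widely among themselves. Ephb2 fell in iCEC (log2 fold change -5.38, SE 1.38, edgeR adjusted p = 0.0299) and in pCEC (-3.38, SE 0.47, edgeR adjusted p = 0.000745). The iCEC call was lost when pNCC 1, pNCC 2, pNCC 3 or iCEC 2 was left out (adjusted p up to 0.0878), and the value was -6.84 without iCEC 1. Ephb6, a member without kinase activity, rose from 13.9 ± 5.68 CPM (SD, n = 3) to 87.1 ± 36.1 in iCEC (6.43-fold, edgeR adjusted p = 0.00639) and to 65.8 ± 9.63 in pCEC (4.67-fold, edgeR adjusted p = 0.000504). Its share of the family level was 6.72% ± 1.98 in pNCC and 43.2% ± 7.82 in iCEC, where it led the family by mean share. The lead over Ephb3 was wide in iCEC 3 only (52.2% against 9.25%). In iCEC 1 the shares were close (39.0% against 38.6%), and in iCEC 2 Ephb3 held more (40.9% against 38.3%). Ephb3 rose in pCEC, from 85.4 ± 20.8 to 245 ± 22.6 CPM (SD, n = 3; 2.82-fold, edgeR adjusted p = 0.000449), and read 98.6, 146 and 39.6 CPM in iCEC. Ephb4, known from veins, fell in pCEC from 113 ± 11.7 to 51.2 ± 8.89 CPM (SD, n = 3; 2.26-fold, edgeR adjusted p = 0.000407) and read 36.7, 50.9 and 113 CPM in iCEC. Without iCEC 3 the fall of Ephb4 in iCEC passed the test too (log2 fold change -1.37, edgeR adjusted p = 0.00346). Ephb1 read at most 0.416 CPM in pNCC, 0, 0 and 2.54 CPM in iCEC, and 1.20, 5.79 and 6.70 CPM in pCEC, a rise in pCEC (log2 fold change 4.29, SE 0.86, edgeR adjusted p = 0.00384; 5.07 without pNCC 1). With pCEC 1, the library labelled polyA RNA, as the sole pCEC library, Ephb1 no longer passed (2.40, adjusted p = 0.0862).

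Ephrin-A ligands had a higher summed level outside the crest, 20.05 ± 2.30 CPM per kb (SD, n = 3) in pNCC, 71.8 ± 9.50 in iCEC and 73.0 ± 11.8 in pCEC, and no iCEC or pCEC library overlapped pNCC. Efna1 (chr3:89271733-89281142, minus strand), the main ligand of EphA2, read 7.72, 5.57 and 4.18 CPM in pNCC, 58.6, 63.8 and 57.7 CPM in iCEC, and 53.9, 78.0 and 86.6 CPM in pCEC. It was 10.5-fold higher in iCEC (log2 fold change 3.40, SE 0.27, edgeR adjusted p = 0.000809) and 12.3-fold higher in pCEC (3.62, SE 0.27, edgeR adjusted p = 3.63e-05), and its share of the family was 15.6% ± 3.02, 46.4% ± 8.28 and 54.1% ± 4.59. Efna3 rose from 1.40 ± 0.398 CPM (SD, n = 3) to 36.7 ± 13.0 in iCEC (26.8-fold, edgeR adjusted p = 0.00103) and 23.0 ± 2.82 in pCEC (16.2-fold, edgeR adjusted p = 1.75e-05). Efna4 rose from 10.4 ± 1.71 CPM to 24.2 ± 5.71 (SD, n = 3; 2.38-fold, edgeR adjusted p = 0.0143) and 19.2 ± 2.31 (1.81-fold, edgeR adjusted p = 0.00406). Those 3 genes lie close together on chromosome 3, and the exons of Efna3 and Efna4 share 14.1% and 10.5% of their bases with the antisense genes Gm15998 and 4731419I09Rik, whose reads cannot be told apart without strand. Efna2 went the other way, with 8.56 ± 0.787 CPM in pNCC, 3.45 ± 2.37 in iCEC and 0.857 ± 0.323 in pCEC (SD, n = 3), and fell in pCEC (10.1-fold, edgeR adjusted p = 0.000106). Efna5 rose in pCEC (1.93-fold, edgeR adjusted p = 0.0197) but not without pCEC 3 (adjusted p = 0.0669). The iCEC call of Efna4 was lost without pNCC 1 or pNCC 2 (adjusted p up to 0.0803), and its pCEC call and that of Efna5 were lost with pCEC 1 as the sole pCEC library (adjusted p = 0.0679 and 0.221).

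The ephrin-B ligands differed less. Efnb1, which marks tissue boundaries in the head, read 37.5 to 50.4 CPM in pNCC and 119, 145 and 157 CPM in pCEC, a 3.22-fold rise (edgeR adjusted p = 9.04e-05). In iCEC it read 82.3, 97.2 and 32.8 CPM, which overlapped pNCC, and it passed the test there only without iCEC 3 (log2 fold change 1.07, edgeR adjusted p = 0.00570). Efnb2, with 136 ± 22.0 CPM in pNCC, 113 ± 18.3 in iCEC and 108 ± 10.2 in pCEC (SD, n = 3), passed in no comparison, and without pNCC 1 it did in pCEC vs pNCC (log2 fold change -0.50, edgeR adjusted p = 0.0163). Efnb3 stayed between 0.670 and 1.46 CPM in every library.

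**Figure D2:**
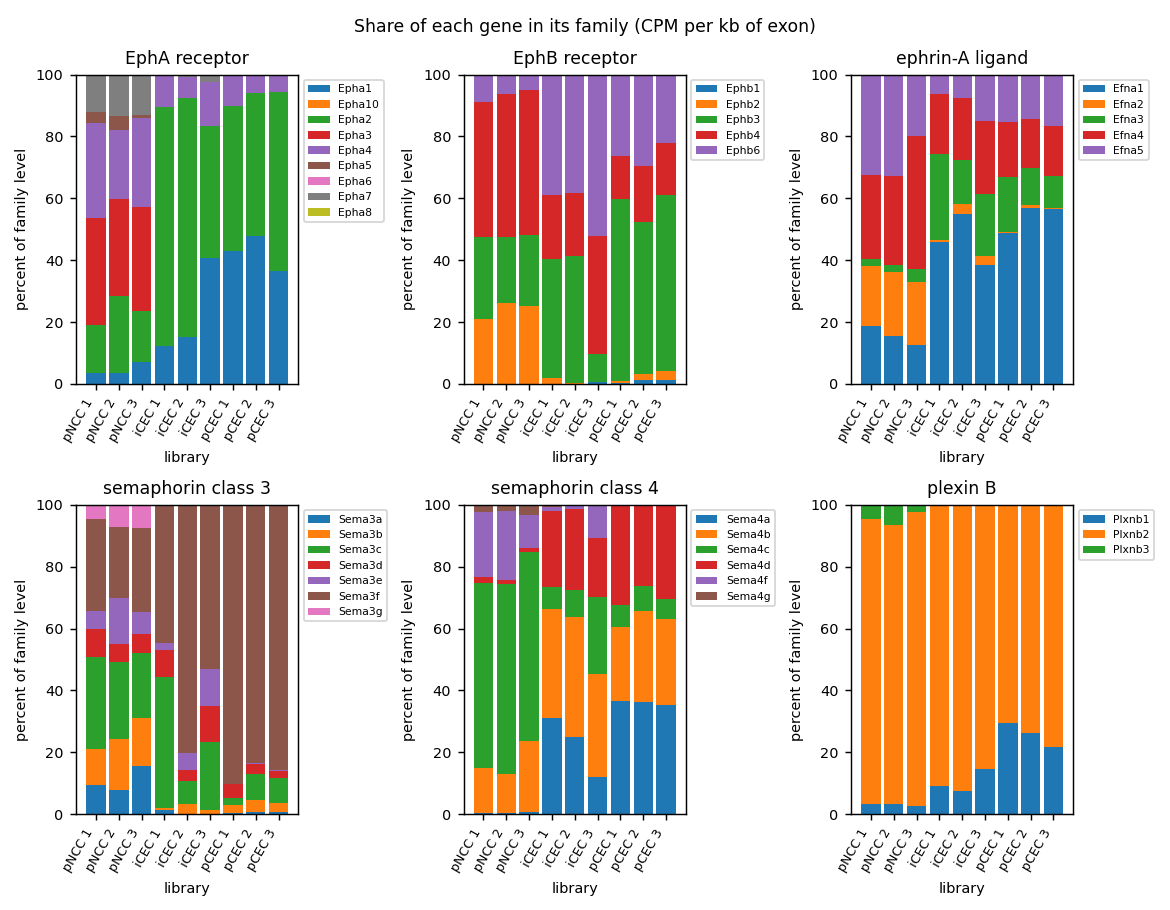
Share of each gene in the summed level (CPM per kb of exon) of its family, in percent, for 6 families in the 9 libraries. Epha3 holds 33.2% of the EphA level in pNCC and is not visible elsewhere, Sema4c holds 60.7% of class 4 in pNCC and 7.20% in pCEC, and Sema3f holds 86.4% of class 3 in pCEC (means of 3 libraries).

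Of the secreted class 3 semaphorins, Sema3f rose, Sema3g fell, and Sema3a and Sema3e fell in pCEC, while Sema3c did not pass a test. Sema3f (chr9:107681500-107710475, minus strand), the main ligand of Nrp2, read 55.2, 30.6 and 16.6 CPM in pNCC, 129, 244 and 71.7 CPM in iCEC, and 263, 341 and 356 CPM in pCEC. It was 4.44-fold higher in iCEC (log2 fold change 2.15, SE 0.60, edgeR adjusted p = 0.0401) and 9.20-fold higher in pCEC (3.20, SE 0.43, edgeR adjusted p = 0.000602). The iCEC call was lost without any one of the pNCC libraries, iCEC 1 or iCEC 2 (adjusted p up to 0.141). Sema3f held 26.4% ± 3.38 of the class 3 level in pNCC, 59.2% ± 18.5 in iCEC and 86.4% ± 3.47 in pCEC (SD, n = 3). Sema3g (chr14:31217860-31230352, plus strand), known from vessels, read 7.66, 8.58 and 4.12 CPM in pNCC, 0.0410, 0 and 0 CPM in iCEC, and 0, 0.427 and 0.251 CPM in pCEC. It was 420.2-fold lower in iCEC by summed counts (95% counting interval 116 to 3476; edgeR adjusted p = 0.00259) and 30.5-fold lower in pCEC (log2 fold change -4.93, SE 0.85, edgeR adjusted p = 0.00196; -5.88 without pCEC 2 and -4.27 without pCEC 1). The summed level of the 10 vessel endothelium markers was lower in iCEC than in pNCC and overlapped pNCC in pCEC (ranges above), but its members differed in direction. Esam read 5.10, 1.81 and 0 CPM in iCEC, against 0.0572 to 0.594 CPM in pNCC, and in pCEC Cdh5 and Tek had lower means than in pNCC (0.484 against 10.3 and 0.321 against 3.70 CPM) while Kdr and Tie1 had higher ones. The part of these markers was not tested. Without iCEC 1 the fitted value of Sema3g in iCEC was -10.91, with no count left in that group.

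Sema3e (chr5:14025276-14256689, plus strand), which binds plexin D1 without a neuropilin, read 19.6, 35.1 and 8.06 CPM in pNCC, 10.9, 30.4 and 29.3 CPM in iCEC, and 0.718, 1.89 and 1.84 CPM in pCEC. The pNCC and iCEC libraries covered the same range, and all pCEC libraries were below both. Sema3e was 14.4-fold lower in pCEC than in pNCC (log2 fold change -3.85, SE 0.62, edgeR adjusted p = 0.00148). Sema3a fell in pCEC from 33.3 ± 11.5 to 6.28 ± 3.34 CPM (SD, n = 3; 5.47-fold, edgeR adjusted p = 0.00314) and read 11.0, 1.26 and 0 CPM in iCEC (adjusted p = 0.207 by edgeR). Sema3c (chr5:17574281-17730268, plus strand), a cue of crest cells in the heart's outflow tract, read 76.3, 46.3 and 17.7 CPM in pNCC, 169, 32.2 and 40.6 CPM in iCEC, and 10.0, 47.9 and 46.4 CPM in pCEC. All 3 groups overlapped, and 1 library of iCEC and 1 of pCEC lay apart from the others of their group. Its log2 fold change against pNCC was 0.82 (SE 0.79, edgeR adjusted p = 0.477) in iCEC and -0.47 (SE 0.67, edgeR adjusted p = 0.568) in pCEC, and without iCEC 1 the iCEC value was -0.33. With pCEC 1 as the sole pCEC library the pCEC value was -2.24 (edgeR adjusted p = 0.0961), and without pCEC 1 it was 0.025. Sema3b and Sema3d passed in neither comparison, with 8.92 to 20.2 and 6.23 to 27.5 CPM in pNCC. Without iCEC 2 Sema3b passed in iCEC (log2 fold change -3.50, edgeR adjusted p = 0.0127), without pNCC 3 in pCEC (-0.97, adjusted p = 0.0290), and Sema3d passed in pCEC without pNCC 1 (1.01, adjusted p = 0.0469).

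The neuropilins, co-receptors of class 3 semaphorins and of VEGF, were lower outside the crest, with a summed level of 36.7 ± 4.34 CPM per kb (SD, n = 3) in pNCC, 11.1 ± 4.72 in iCEC and 1.07 ± 0.420 in pCEC. Nrp2 (chr1:62703285-62818695, plus strand) read 428, 322 and 346 CPM in pNCC, 80.4, 127 and 68.7 CPM in iCEC, and 3.83, 8.14 and 9.34 CPM in pCEC. The 3 groups were far apart, in that order. Nrp2 fell 3.88-fold in iCEC (log2 fold change -1.96, SE 0.28, edgeR adjusted p = 0.00472) and 52.8-fold in pCEC (-5.72, SE 0.36, edgeR adjusted p = 1.77e-05). Nrp1 (chr8:128358604-128503363, plus strand) read 54.0, 65.7 and 51.8 CPM in pNCC, 44.6, 48.9 and 4.58 CPM in iCEC, and 2.63, 6.83 and 4.31 CPM in pCEC. iCEC 3 lay within the pCEC range, while iCEC 1 and iCEC 2 lay just below pNCC. Nrp1 fell 12.7-fold in pCEC (log2 fold change -3.67, SE 0.33, edgeR adjusted p = 8.50e-05), and in iCEC its value was -0.77 (SE 0.77, edgeR adjusted p = 0.488). Nrp1 and Nrp2 are both known from vessel endothelium as well as from neural crest. The neural crest list summed to 756 to 912 CPM in pNCC, 62.4 to 88.0 CPM in iCEC and 126 to 216 CPM in pCEC. It was thus lower in iCEC than in pCEC, while Nrp2 was higher in iCEC than in pCEC. Its part was not tested.

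Class 4 semaphorins included the largest fold rises against pNCC among the members tested, those of Sema4a. Sema4a (chr3:88435959-88461182, minus strand), known from immune and retinal cells, read 0.386, 0.619 and 0.686 CPM in pNCC, 67.3, 82.3 and 12.2 CPM in iCEC, and 193, 263 and 266 CPM in pCEC. The 3 groups did not overlap, and Sema4a was 97.3-fold higher in iCEC (log2 fold change 6.61, SE 0.85, edgeR adjusted p = 0.00335) and 415-fold higher in pCEC (8.70, SE 0.26, edgeR adjusted p = 1.17e-06). Sema4d (chr13:51685529-51793747, minus strand), the ligand of plexin B1, read 3.24, 2.53 and 2.00 CPM in pNCC, 75.6, 122 and 27.3 CPM in iCEC, and 239.6, 266 and 324 CPM in pCEC. Again the groups were in that order with no overlap, and the rises were 29.7-fold (log2 fold change 4.89, SE 0.62, edgeR adjusted p = 0.00318) and 105-fold (6.71, SE 0.24, edgeR adjusted p = 1.76e-06). Both genes are also known from leukocytes, whose 8 markers summed to at most 56.5 CPM in any library, with Ptprc, Adgre1, Tyrobp and Lyz2 at 0 in iCEC. Cd68 of that list was at 2.37 to 3.96 CPM in pNCC, 30.4, 54.6 and 2.34 CPM in iCEC and 15.8 to 24.6 CPM in pCEC, so that like Sema4a and Sema4d it was lowest in iCEC 3 among the iCEC libraries. The part of leukocytes was not tested. Sema4b rose from 19.2 ± 4.28 CPM to 82.8 ± 50.04 in iCEC (SD, n = 3; 4.40-fold, edgeR adjusted p = 0.0221) and to 190.4 ± 51.3 in pCEC (9.67-fold, edgeR adjusted p = 3.96e-05), and its iCEC call was lost without any one of the pNCC libraries or iCEC 1 (adjusted p up to 0.0983).

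Other members of class 4 fell. Sema4f (chr6:82911885-82939769, minus strand), found at synapses, read 23.2, 27.1 and 10.6 CPM in pNCC, 2.42, 3.09 and 10.1 CPM in iCEC, and 0.180, 0.183 and 0.335 CPM in pCEC. The groups did not overlap, but iCEC 3 came close to pNCC 3. The fall was 89.9-fold in pCEC (log2 fold change -6.49, SE 0.49, edgeR adjusted p = 3.55e-05), and in iCEC the value was -1.93 (SE 0.67, edgeR adjusted p = 0.0740), or -2.87 without iCEC 3 (adjusted p = 0.00586). Sema4c, a plexin B2 ligand, fell from 58.0 ± 6.15 CPM to 19.6 ± 5.92 in iCEC (SD, n = 3; 2.90-fold, edgeR adjusted p = 0.00861) and to 40.8 ± 9.66 in pCEC (1.45-fold, edgeR adjusted p = 0.0292). The pCEC call of Sema4c was lost without pNCC 1, pNCC 2, pCEC 1 or pCEC 3 (adjusted p up to 0.117), and 7.27% of its exon bases lie opposite the transcript D430040D24Rik. Sema4g fell in pCEC, from 4.36 ± 0.693 to 1.37 ± 0.487 CPM (SD, n = 3; 3.23-fold, edgeR adjusted p = 0.00387). By level per kb, Sema4c held 60.7% ± 0.838 of the class in pNCC, 13.6% ± 9.84 in iCEC and 7.20% ± 0.968 in pCEC. Sema4a held 0.507% ± 0.170, 22.7% ± 9.67 and 36.1% ± 0.725 in the same order, and Sema4d held 1.62% ± 0.348, 23.3% ± 3.61 and 29.5% ± 3.20 (SD, n = 3).

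The membrane-bound class 6 semaphorins, ligands of plexin A, summed to 8.96 ± 0.549 CPM per kb in pNCC, 1.21 ± 0.590 in iCEC and 3.55 ± 0.332 in pCEC (SD, n = 3). Sema6d (chr2:124089969-124667770, plus strand) read 23.2, 25.4 and 18.1 CPM in pNCC, 1.48, 0.745 and 0.846 CPM in iCEC, and 37.2, 23.0 and 27.6 CPM in pCEC. It was low in the 3 iCEC libraries alone, and pNCC and pCEC overlapped. Against pNCC it fell 21.1-fold in iCEC (log2 fold change -4.40, SE 0.39, edgeR adjusted p = 0.00105), and its value in pCEC was 0.38 (SE 0.22, edgeR adjusted p = 0.175), or 0.73 with pCEC 1 as the sole pCEC library (adjusted p = 0.0409). Sema6a read 30.02, 41.0 and 47.2 CPM in pNCC, 0.164, 0.802 and 13.2 CPM in iCEC, and 0.389, 0.915 and 0.461 CPM in pCEC. iCEC 3 was between the level of pNCC and that of all other libraries. Sema6a fell 67.0-fold in pCEC (log2 fold change -6.07, SE 0.35, edgeR adjusted p = 1.10e-05), and in iCEC the value was -3.03 (SE 1.43, edgeR adjusted p = 0.160), or -6.40 without iCEC 3 (adjusted p = 0.00147). Sema6b and Sema6c fell in both groups, by log2 fold changes of -2.39 and -1.92 in iCEC (edgeR adjusted p = 0.0469 and 0.0171) and -3.43 and -1.48 in pCEC (edgeR adjusted p = 0.000502 and 0.0147). Their iCEC calls were lost without any one of the pNCC libraries and, for Sema6b, without iCEC 1 or iCEC 2 (adjusted p up to 0.149 and 0.0792), and the pCEC call of Sema6c was lost without pCEC 3 (0.0605). Sema7a, which is anchored by a lipid and binds plexin C1 and integrins, fell from 10.7 ± 3.24 CPM to 0.625 ± 0.754 in iCEC (SD, n = 3; 16.7-fold, edgeR adjusted p = 0.0272) and to 0.378 ± 0.237 in pCEC (29.4-fold, edgeR adjusted p = 0.000175). In iCEC its log2 fold change was -4.06, or -5.71 without iCEC 2, and the call was lost without any one of the pNCC libraries or iCEC 1 (adjusted p up to 0.0956). Sema5a passed in neither comparison, with 106 to 178 CPM in pNCC, 119, 33.3 and 24.2 CPM in iCEC and 93.4 to 107 CPM in pCEC. Without iCEC 1 its fall in iCEC passed (log2 fold change -2.22, edgeR adjusted p = 0.0108), and without pNCC 2 that in pCEC did (-0.63, adjusted p = 0.0314).

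Among the plexins, the receptors of semaphorins, Plxnb1 rose in both groups, Plxna1, Plxna4, Plxnb3 and Plxnc1 fell in both, and Plxnb2 was the most abundant per kb in every group. Plxnb1 (chr9:109095389-109119917, plus strand) read 22.6, 21.8 and 17.8 CPM in pNCC, 136, 116 and 70.9 CPM in iCEC, and 439.5, 529 and 452 CPM in pCEC. The 3 groups were well separated in that order, with rises of 5.32-fold in iCEC (log2 fold change 2.41, SE 0.28, edgeR adjusted p = 0.00248) and 22.5-fold in pCEC (4.49, SE 0.16, edgeR adjusted p = 1.72e-06). Plxnb3 (chrX:73757090-73772514, plus strand), known from glia, read 20.6, 29.3 and 10.7 CPM in pNCC, 0, 0 and 0.0498 CPM in iCEC, and 0, 0.183 and 0.0837 CPM in pCEC. It was near 0 in all 6 libraries outside pNCC, 1255-fold lower in iCEC by summed counts (95% counting interval 347 to 10366; edgeR adjusted p = 0.00180) and 221-fold lower in pCEC (log2 fold change -7.79, SE 0.74, edgeR adjusted p = 0.000118). The log2 value of Plxnb3 in iCEC was -12.56 without iCEC 3 and -9.38 without iCEC 1, and in pCEC it was -8.996 without pCEC 2 and -7.12 without pCEC 1. The 7 glia markers summed to more in pCEC than in pNCC (445 to 524 against 68.9 to 157 CPM), mostly through Erbb3 and Mbp, while Cdh19 was lower there, and their part was not tested. Plxnb2, which binds class 4 semaphorins, rose in pCEC from 494 ± 5.93 to 1121 ± 246 CPM (SD, n = 3; 2.22-fold, edgeR adjusted p = 0.000938), and it read 1077, 1154 and 336 CPM in iCEC, where it passed only without iCEC 3 (log2 fold change 1.18, edgeR adjusted p = 0.00184). Per kb, Plxnb2 held 92.4% ± 2.24, 89.6% ± 3.68 and 74.2% ± 3.93 of the plexin B level in pNCC, iCEC and pCEC, and Plxnb1 held 3.11% ± 0.312, 10.4% ± 3.68 and 25.8% ± 3.94 (SD, n = 3).

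Plxna4 (chr6:32144268-32588192, minus strand), a receptor of sensory and sympathetic neurons, read 28.8, 28.5 and 18.6 CPM in pNCC, 0, 0.917 and 0 CPM in iCEC, and 0.718, 2.68 and 1.09 CPM in pCEC. It was below 3 CPM in every library outside pNCC and fell in iCEC (log2 fold change -6.38, SE 1.70, edgeR adjusted p = 0.0339) and in pCEC (-4.10, SE 0.49, edgeR adjusted p = 0.000338; -4.81 without pCEC 2). In iCEC the call was lost without any one of the pNCC libraries or iCEC 1 (adjusted p up to 0.110), and the value was -12.92 without iCEC 2 and -5.76 without iCEC 1. The 8 neuron markers, of which Tubb3 and Gap43 make up most, had lower sums there, of at most 10.7 CPM in iCEC and 3.90 CPM in pCEC, and their part was not tested. Plxnc1 (chr10:94790866-94944835, minus strand), the receptor of Sema7a, read 6.92, 2.47 and 3.20 CPM in pNCC, 0.0820, 0 and 0 CPM in iCEC, and 0.180, 1.13 and 0.335 CPM in pCEC. It fell 122-fold in iCEC (log2 fold change -6.93, SE 1.21, edgeR adjusted p = 0.00851; -10.22 without iCEC 1) and 7.74-fold in pCEC (-2.95, SE 0.73, edgeR adjusted p = 0.00989; -4.03 without pCEC 2). Plxna1, the broad partner of neuropilins, fell from 282 ± 12.5 CPM to 173 ± 36.2 in iCEC (SD, n = 3; 1.60-fold, edgeR adjusted p = 0.0442) and to 99.0 ± 8.55 in pCEC (2.90-fold, edgeR adjusted p = 3.09e-05). The iCEC call of Plxna1 was lost without any one of the pNCC libraries or iCEC 2 (adjusted p up to 0.142), and 10.7% of its exon bases lie opposite the antisense gene Gm26811. Plxnd1, known from vessels, fell in pCEC from 86.9 ± 12.5 to 3.71 ± 1.92 CPM (SD, n = 3; 24.0-fold, edgeR adjusted p = 7.21e-05). In iCEC it read 6.29, 28.9 and 1.94 CPM (adjusted p = 0.0678 by edgeR), and it passed without iCEC 2 or iCEC 3 (down to 0.0104). Plxna2 read 25.7 to 35.0 CPM in pNCC, 21.7, 4.15 and 3.53 CPM in iCEC and 31.7 to 45.3 CPM in pCEC, and passed in iCEC only without iCEC 1 (log2 fold change -2.99, edgeR adjusted p = 0.00340) and in pCEC only without pCEC 3 (0.53, adjusted p = 0.0369).

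**Figure D3:**
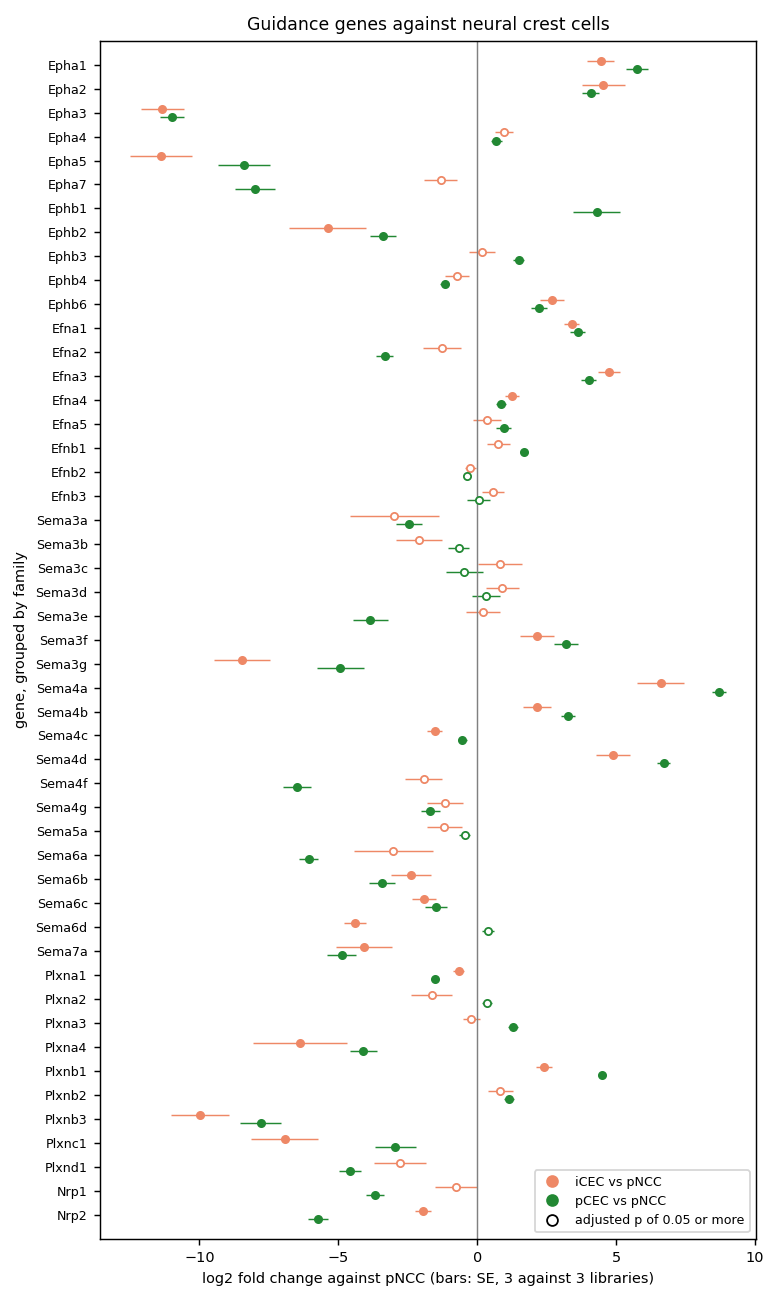
Fitted log2 fold change of each tested member against pNCC (horizontal axis), with its SE as a bar, for iCEC (orange) and pCEC (green). Open points had an adjusted p of 0.05 or more. Sema4a and Sema4d lie far to the right and Epha3, Epha5 and Plxnb3 far to the left in both comparisons, and Sema6d is far to the left in iCEC alone. The iCEC value of Epha5, whose iCEC counts were all 0, depends on the prior count of the fit.

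Between iCEC and pCEC, Epha7, Sema4f, Sema3e, Nrp2 and Plxna1 were higher in iCEC, and Sema6d, Plxnb1, Sema4d, Plxna3 and Epha1 were lower. Each of the 10 had been compared with pNCC in the same libraries, so the iCEC level can be placed by the values given above. Epha7, Sema4f, Nrp2 and Plxna1 lay in iCEC between pNCC and pCEC, as did Epha1, Plxnb1 and Sema4d, and Sema6d was below both. Nrp2 was 13.4-fold higher in iCEC (log2 fold change 3.75, SE 0.42, edgeR adjusted p = 0.00370) and Sema3e was 16.7-fold higher (4.06, SE 0.60, edgeR adjusted p = 0.00748). Sema6d was 27.3-fold lower (-4.77, SE 0.40, edgeR adjusted p = 0.00197), and Plxnb1 was 4.25-fold lower (-2.09, SE 0.27, edgeR adjusted p = 0.00553). Plxna3 (chrX:74329066-74344689, plus strand), a receptor of Sema3f with Nrp2, read 24.6, 16.1 and 16.4 CPM in pNCC, 13.6, 21.3 and 13.3 CPM in iCEC, and 47.6, 48.5 and 45.9 CPM in pCEC. Its pCEC libraries lay close together above all the others, 2.84-fold above iCEC (log2 fold change of iCEC over pCEC -1.51, SE 0.23, edgeR adjusted p = 0.00773) and 2.44-fold above pNCC (edgeR adjusted p = 0.000753). These 5 calls were kept when any one of the 6 libraries was left out.

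The other 5 calls were lost in some of the fits with 1 library left out. Calls over all genes fell as well, from 3327 to between 1131 and 1353 when a pCEC library was left out. Epha7 was 106-fold higher in iCEC (log2 fold change 6.73, SE 1.49, edgeR adjusted p = 0.0253; 11.37 without pCEC 2) and lost its call without iCEC 2, pCEC 1 or pCEC 3 (adjusted p up to 0.0884). Sema4f was 23.9-fold higher (4.58, SE 0.82, edgeR adjusted p = 0.0128; 3.63 without iCEC 3) and lost it without any one of the pCEC libraries (up to 0.0713). Sema4d was 3.59-fold lower in iCEC (-1.85, SE 0.49, edgeR adjusted p = 0.0444), Epha1 was 2.49-fold lower (-1.32, SE 0.29, edgeR adjusted p = 0.0227) and Plxna1 was 1.83-fold higher (0.87, SE 0.22, edgeR adjusted p = 0.0353). Each of these was lost without any one of the pCEC libraries, and Sema4d and Plxna1 also without iCEC 1 (adjusted p up to 0.130, 0.0878 and 0.143). With pCEC 1 as the sole pCEC library none of the 10 passed with edgeR. No gene of the whole table was called in that setting.

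Nrp1 and Sema3c did not pass the test between iCEC and pCEC. Nrp1 was 7.27-fold higher in iCEC (log2 fold change 2.86, SE 0.86, edgeR adjusted p = 0.0608) and passed without iCEC 3, the library in which it was low (adjusted p = 0.00170). Sema3c had a log2 fold change of 1.27 (SE 0.82, edgeR adjusted p = 0.321), which was 0.15 without iCEC 1 and 3.06 with pCEC 1 as the sole pCEC library (adjusted p = 0.895 and 0.410). Sema4a, whose 3 iCEC libraries were all below pCEC, was 4.36-fold lower (-2.12, SE 0.63, edgeR adjusted p = 0.0601) and passed without iCEC 3 (adjusted p = 0.00315). Ephb3 was 2.52-fold lower (-1.33, SE 0.42, edgeR adjusted p = 0.0718) and passed without iCEC 2 or iCEC 3 (adjusted p down to 0.0235). Over all genes tested, 2456 of 16924 were called without iCEC 1 and 3115 of 16990 without iCEC 2. Without iCEC 3 it was 4974 of 17316, against 3327 of 16278 in the main fit. A further 9 members passed when 1 iCEC library was left out. They were Sema5a, Plxna2 and Efna2 without iCEC 1, Sema3f, Efna3, Sema3b and Plxna4 without iCEC 2, and Efna5 and Ephb1 without iCEC 3, with adjusted p from 0.00530 to 0.0369.

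**Figure D4:**
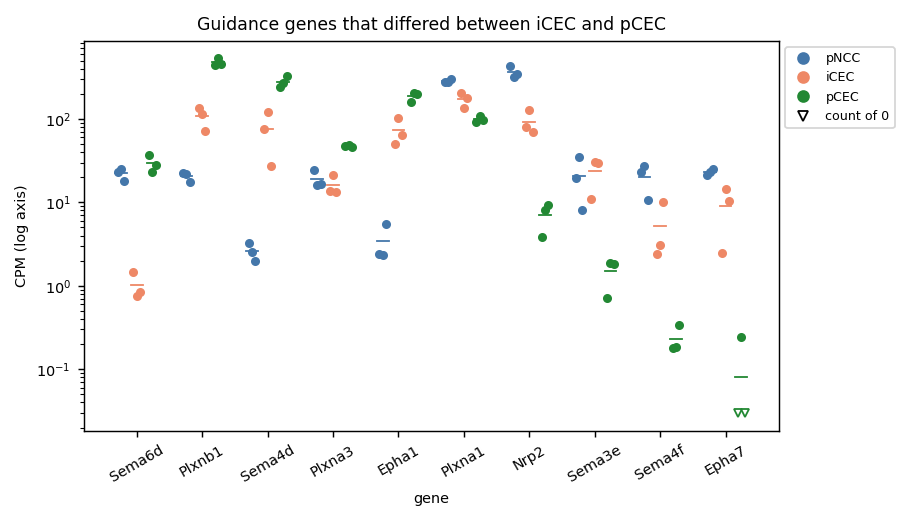
CPM on a log axis of the 10 guidance genes that differed between iCEC and pCEC, with 1 point per library, short lines for the means of 3 libraries, and open triangles near the base for a count of 0. Sema6d is low in iCEC alone, Plxna3 is high in pCEC alone, and the iCEC means of Nrp2, Epha1, Plxnb1 and Sema4d lie between those of the other groups.

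Genes that work beside these families were read from the same fits, by 3 lists. Of 38 cytoplasmic partners, which carry the signal to the cytoskeleton, 6 were higher and 13 lower in iCEC than in pNCC (median log2 fold change -0.22), 13 were higher and 20 lower in pCEC (-0.62), and of 35 tested between iCEC and pCEC, 6 were higher and 4 lower in iCEC (-0.21). Of all genes tested, 16.1% were higher and 15.1% lower in iCEC than in pNCC, 30.3% and 32.2% in pCEC, and 10.5% and 9.92% between iCEC and pCEC. Chn1, a Rac-inactivating protein downstream of EphA4, read 6.44 ± 0.180 CPM in pNCC, 0.0713 ± 0.0127 in iCEC and 1.47 ± 0.412 in pCEC (SD, n = 3), and was lower in iCEC than in pNCC (edgeR adjusted p = 0.000496) and than in pCEC (edgeR adjusted p = 0.00630). Dpysl3, of the collapsin response mediator family that carries Sema3a signals, fell 39.4-fold in iCEC (edgeR adjusted p = 0.00215) and 17.7-fold in pCEC (edgeR adjusted p = 8.99e-05). Itsn1, an exchange factor that works with EphB2, fell 4.12-fold in iCEC (edgeR adjusted p = 0.000809) and 3.55-fold in pCEC (edgeR adjusted p = 4.19e-05). Crmp1 fell 132-fold in iCEC (edgeR adjusted p = 0.0108) and 91.8-fold in pCEC (edgeR adjusted p = 1.41e-05). Fyn, a Src family kinase, read 2.85, 6.13 and 77.8 CPM in iCEC, against 83.9 to 104 CPM in pNCC, and fell 117-fold in pCEC (edgeR adjusted p = 1.04e-05). Cfl1, the actin-severing cofilin, was 11.6-fold lower in pCEC than in pNCC (edgeR adjusted p = 1.17e-05) and 1.89-fold lower in iCEC (edgeR adjusted p = 0.0236). It was 6.12-fold higher in iCEC than in pCEC (edgeR adjusted p = 0.00210). Ngef, an exchange factor that binds EphA4, was 12.8-fold lower in iCEC than in pCEC (edgeR adjusted p = 0.00818).

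Of 13 membrane partners of neuropilins and plexins, 11 were tested in iCEC vs pNCC, where 2 were higher and 2 lower (median log2 fold change -0.31), and all 13 in pCEC vs pNCC, where 7 were higher and 6 lower (2.02). Between iCEC and pCEC 2 of 13 were higher in iCEC and 3 lower (0.34). Of all genes tested, 31.3%, 62.5% and 20.4% were called in these 3 comparisons, so the first count is near the background. Met and Erbb2, receptor kinases that associate with plexin B1, rose in iCEC by 6.26-fold and 3.03-fold (edgeR adjusted p = 0.00546 and 0.0107). In pCEC they rose by 4.94-fold and 5.84-fold (edgeR adjusted p = 8.07e-05 and 1.11e-05). Itgb1, the integrin chain of a Sema7a receptor, read 1555 ± 266 CPM in pNCC, 604 ± 135 in iCEC and 229.7 ± 19.9 in pCEC (SD, n = 3), and the 3 differences passed (edgeR adjusted p = 0.0111, 1.61e-05 and 0.00978). Vegfc, a ligand of Nrp2, fell 45.5-fold in pCEC (edgeR adjusted p = 3.80e-06). L1cam, which binds Nrp1, was 8.43-fold lower in iCEC than in pCEC (edgeR adjusted p = 0.00627), and Timd2, a receptor of Sema4a, was at 0 in pNCC and iCEC and at 1.55 to 2.63 CPM in pCEC.

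The last list held other guidance families, among them the netrins, Slits, Flrt proteins and their receptors. Of the 24 genes, 22 were tested in iCEC vs pNCC, where 1 was higher and 9 lower (median log2 fold change -1.23) and 12 did not pass, and 21 in pCEC vs pNCC, where 2 were higher and 14 lower (-1.95). Of all genes tested, 16.1% were higher and 15.1% lower in iCEC than in pNCC, and 30.3% and 32.2% in pCEC. Between iCEC and pCEC 19 were tested, with 4 higher and 1 lower in iCEC (0.33), beside 10.5% and 9.92% of all genes. Ntn4, a netrin of basement membranes, was the 1 higher gene in iCEC, 12.1-fold above pNCC (edgeR adjusted p = 0.00384), while the netrin receptor Unc5b fell 6.65-fold (edgeR adjusted p = 0.00310). In pCEC Ntn4 was 9.70-fold higher than in pNCC (edgeR adjusted p = 0.000271) and Unc5b was 5.26-fold lower (edgeR adjusted p = 0.000226). Draxin, a repellent cue, read 10.3 to 34.3 CPM in pNCC, 0 in every iCEC library and at most 0.122 CPM in pCEC (edgeR adjusted p = 0.00323 in iCEC). Unc5a rose 23.0-fold in pCEC (edgeR adjusted p = 2.18e-06) and read 38.0, 0.0573 and 0.0995 CPM in iCEC, so a single iCEC library held nearly all of it there. Flrt2 and Flrt3, adhesion proteins that bind Unc5 receptors, fell 70.5-fold and 18.3-fold in pCEC (edgeR adjusted p = 9.54e-06 and 8.09e-05). In iCEC Flrt2 fell 3.02-fold (edgeR adjusted p = 0.0126), and Flrt3 did not pass (edgeR adjusted p = 0.0641). Both were higher in iCEC than in pCEC, by 23.6-fold and 10.5-fold (edgeR adjusted p = 0.00162 and 0.00728), as was the Slit receptor Robo1, by 8.25-fold (edgeR adjusted p = 0.0126).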

How the data were processed

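RNA of 9 libraries, 3 per group, was sequenced as paired reads of 150 bases from NEBNext Ultra libraries, which do not mark strand, per the labels' protocols. The authors deposited 1 table of raw counts per gene symbol with no normalization. The submitters' processing notes name mm10 and edgeR without a role or version, and the aligner, counter and annotation are not given in the sources used here. Between 68.3% and 73.0% of counts from 1 to 20 were even in each library, so mates may often have been counted separately, and counting intervals and floors, which cover counting error only, are then too narrow. Replicates differed beyond sampling noise.

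Each comparison was fitted on its 6 libraries with edgeR 4.0.16 in R 4.3.3 (filterByExpr, TMM, robust quasi-likelihood test) on the deposited counts. P-values were adjusted by the Benjamini-Hochberg method over all genes tested and called at 0.05, and each SE was derived from the F statistic, as the absolute log2 fold change over its root. CPM used TMM factors over all 9 libraries (0.872 to 1.196). Gene coordinates and merged exon lengths are from GENCODE M21 (mm10), in which all 53 members matched 1 gene, and promoters are from RefSeq. No protein sequences were used here. A group with 1 to 3 counts is given by the ratio of summed counts with its 95% interval, and a group at 0 by a bound at 3 counts per library.

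Full values are given for Nrp1, Sema3c and, by rule, the 8 called members per comparison with the largest absolute log2 fold change and a mean of at least 1 CPM in 1 group, and for up to 3 genes of each partner list. The values of other members were added after they were seen. The members, lists and tests were chosen with earlier results of these data known. Alternatives were DESeq2 1.42.0 and its size factors, other filters on low counts, all 9 libraries in 1 fit, the replicate number as a block, a 2-fold minimum, pCEC as its polyA library alone, and each library left out in turn. The fits were tested on simulated data with known changes.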

Additional observations from a re-analysis of the deposited data

How the results depend on the processing

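The counts of members called in pCEC vs pNCC, 18 higher and 23 lower, were 17 to 19 and 22 to 25 when 1 library was left out. They were 15 and 20 in a fit of all 9 libraries and 15 and 22 with a 2-fold minimum. Over all genes tested, 8306 of 17616 and 7397 of 16608 were called in these settings, against 10382 of 16608 in the main fit. In iCEC vs pNCC the 11 higher and 14 lower calls ranged from 8 to 14 and from 8 to 18 with 1 library left out. The lowest counts of lower members came without a pNCC library and the highest without iCEC 3. Of the calls in iCEC vs pNCC, pCEC vs pNCC and iCEC vs pCEC, 16 of 25, 37 of 41 and 5 of 10 were kept without each single library. The share of all called genes kept in this way was not computed, so these counts describe the members only. Between iCEC and pCEC the 5 higher and 5 lower calls ranged from 2 to 6 and from 3 to 9. There DESeq2 called 9 lower members, a fit of all 9 libraries called 10, and with pCEC as its polyA library alone edgeR called no member. The cause of these differences was not tested. Calls over all genes in iCEC vs pCEC were more numerous in 2 of these settings. They were 4888 of 16278 tested with DESeq2 and 4972 of 17616 with all 9 libraries, against 3327 of 16278 in the main fit. With the polyA library alone, the lone library is assumed to vary like the other group. The percent of all tested genes called was 31.3%, 62.5% and 20.4% in the 3 comparisons, 15.0%, 36.1% and 10.0% without a filter on low counts, where more genes were tested, and 0% in iCEC vs pCEC with the polyA library alone. It ranged from 13.46% to 44.4%, from 53.0% to 61.7% and from 6.55% to 28.7% with 1 library left out.

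Replicate numbers are not stated to pair the libraries. Deviations from the group mean correlated between -0.18 and 0.07 for same-numbered libraries and between -0.15 and 0.18 for others. With 3 libraries per group such deviations are bound to each other, so this cannot decide whether libraries were paired. With the number as a replicate block, the lower members in iCEC vs pNCC came to 9 and the higher ones to 10, and the share of all genes called was 17.6% in iCEC vs pNCC and 7.96% in iCEC vs pCEC.

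No called member changed direction. Of the members not called, these log2 fold changes turned sign with 1 library left out. In iCEC vs pNCC they ran, for Plxna3 from -0.47 to 0.00085 (turned without pNCC 1), for Sema3e from -0.19 to 0.78 (turned without pNCC 3 or iCEC 2 or iCEC 3), for Sema3c from -0.33 to 1.35 (turned without iCEC 1), for Ephb3 from -0.27 to 0.52 (turned without iCEC 2), and for Efna5 from -0.32 to 0.60 (turned without iCEC 3). In pCEC vs pNCC they ran, for Sema3c from -0.87 to 0.074 (turned without pNCC 1 or pCEC 1), for Efnb3 from -0.15 to 0.30 (turned without pNCC 2 or pNCC 3 or pCEC 2), and for Sema3d from -0.069 to 1.01 (turned without pNCC 3). In iCEC vs pCEC they ran, for Epha2 from -0.14 to 0.94 (turned without iCEC 2), for Sema7a from -0.82 to 1.30 (turned without iCEC 2), for Sema6a from -0.24 to 3.69 (turned without iCEC 3), for Sema3a from -3.29 to 0.053 (turned without iCEC 3), for Ephb4 from -0.17 to 0.78 (turned without iCEC 3), and for Plxnb2 from -0.57 to 0.057 (turned without iCEC 3). With the polyA library alone, Efna1 at 0.21, Sema3a at 0.73, Plxnb2 at 0.052 and Sema6c at 0.49 turned sign in iCEC vs pCEC. At 3 counts (0.0615 to 0.126 CPM) the depth limits Epha6, Epha8 and Epha10, for which no difference was detectable.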
